A study of Mus musculus with 6 samples.

Results

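The comparison concerned 2 compounds, salidroside and forskolin, added to a cocktail of 3 others in cultures of damaged mouse hepatocytes (dHeps). Its members were the 4 RNA-seq libraries of the groups 5C and 3C, 2 per group, of 6 libraries in all, and every gene with enough reads in them. The remaining 2 libraries came from cultures with the solvent DMSO. They served to estimate the spread between replicates, and for some genes their values are given beside those of the cocktails without a test. The cells of all groups came from CCl4-injured mice, of C57BL/6 background, and by the paper were isolated by perfusion with Pronase and collagenase. The paper used this protocol on Rosa-LSL-tdTomato mice given AAV-TBG-Cre before CCl4. It does not state that the sequenced cultures came from such mice. CCl4, carbon tetrachloride, is a solvent toxic to hepatocytes that was given repeatedly to cause chronic injury, and the mice were young adults when this began. The viral Cre is driven by the TBG promoter, which is active in hepatocytes, so that tdTomato marks cells of hepatocyte origin. The labels do not say that the cultures were sorted for tdTomato. All cells were kept for 16 days in serum-free Hepatocyte Maintenance Medium. To make 3C, the protein kinase D inhibitor CID755673 was used at 50 µM, the ROCK inhibitor GSK429286A at 2 µM and ETC-1002 (bempedoic acid), which blocks ATP citrate lyase, at 5 µM. The 5C medium held the same with 5 µM salidroside, a phenylethanoid glucoside found in Rhodiola, and 2 µM forskolin. Since both were added together, their effects cannot be told apart in these libraries. The paper also removed each alone from 5C, in cultures not used here. The sources do not say that a group's cultures were from separate animals, so p-values measure the spread between these libraries, which may be technical.

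Forskolin activates adenylate cyclases, the enzymes that make cyclic AMP (cAMP). In hepatocytes cAMP is the second messenger of glucagon. It activates protein kinase A, which phosphorylates the transcription factor CREB, and CREB raises genes of gluconeogenesis such as Pck1 through the cAMP response element in their promoters. Hepatocytes are also the source of most plasma proteins, including the acute phase proteins that the liver releases in inflammation, and they carry the cytochrome P450 enzymes that oxidise drugs.

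Of 52323 genes in the table, 19135 had enough counts to be tested. A gene was called where edgeR's quasi-likelihood test gave a Benjamini-Hochberg adjusted p under 0.05 and the log2 fold change of 5C against 3C was over 1 in size. By this rule 576 genes, or 3.01% of those tested, were called, of which 413 (2.16%) were higher and 163 (0.852%) lower in 5C. At any fold, 2423 genes (12.7%) passed the adjusted p, 1403 (7.33%) higher and 1020 (5.33%) lower. The median log2 fold change over all genes tested was -0.01. The groups' libraries did not overlap for any called gene, which was also so for 58.0% of all genes tested. The count of called genes rested on single libraries to some extent. Without 3C replicate 1 it was 270 higher and 95 lower, and without 5C replicate 2 it was 237 higher and 135 lower. In all, 154 of the higher and 54 of the lower genes were also called in each of the 6 fits that left out 1 library. Levels are given as CPM, read counts divided by the library total and scaled alike in every library, and changes as log2 fold changes. Library totals were 65916573 to 69245895 counts, and a floor of 12 counts, taken as 3 fragments, corresponded to 0.173 to 0.182 CPM.

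**Figure D1:**
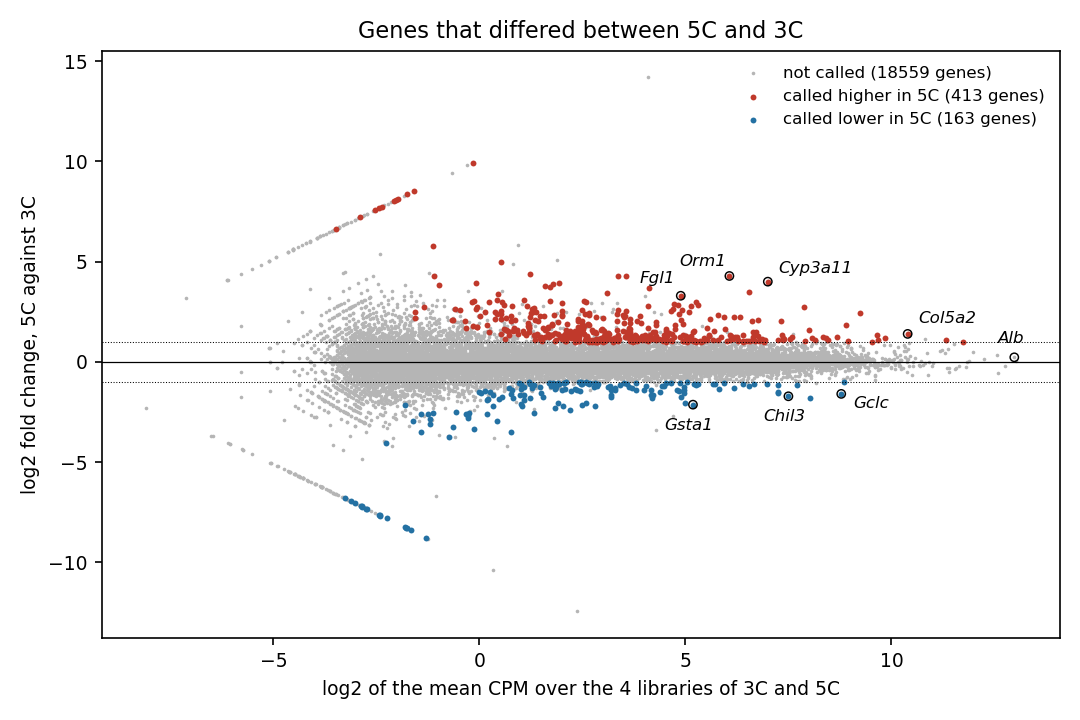
Log2 fold change of 5C against 3C (vertical axis) against the log2 of the mean CPM over the 3C and 5C libraries (horizontal axis), with 1 point per gene tested and dotted lines at a log2 fold change of 1 and -1. Red points are the 413 genes called higher and blue points the 163 called lower in 5C. 15 genes with no count in these libraries cannot be placed on the log axis, and the straight arms at low CPM are genes with no count in 1 of the groups, whose fitted fold change depends on a small constant.

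Called genes were small to moderate in level. Among those higher in 5C, the median size of the log2 fold change was 1.41, 37 exceeded 3, and 269 had a mean of at least 5 CPM over the 3C and 5C libraries. Among those lower, the median size was 1.45, 24 exceeded 3, and 73 had a mean of at least 5 CPM. For 19 of the higher genes the 3C libraries, and for 28 of the lower genes the 5C libraries, were at or under the floor, so that their fold changes have no firm size. Protein-coding genes made up 396 of the higher and 136 of the lower genes. To describe what kinds of genes these were, 33 lists of liver, signalling and cell type genes were compiled, with 857 different genes, of which 827 were tested. Of these, 98 were called higher and 16 lower in 5C. Members of a list are not independent replicates, and the lists are described by counts beside the percentages over all genes.

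**Figure D2:**
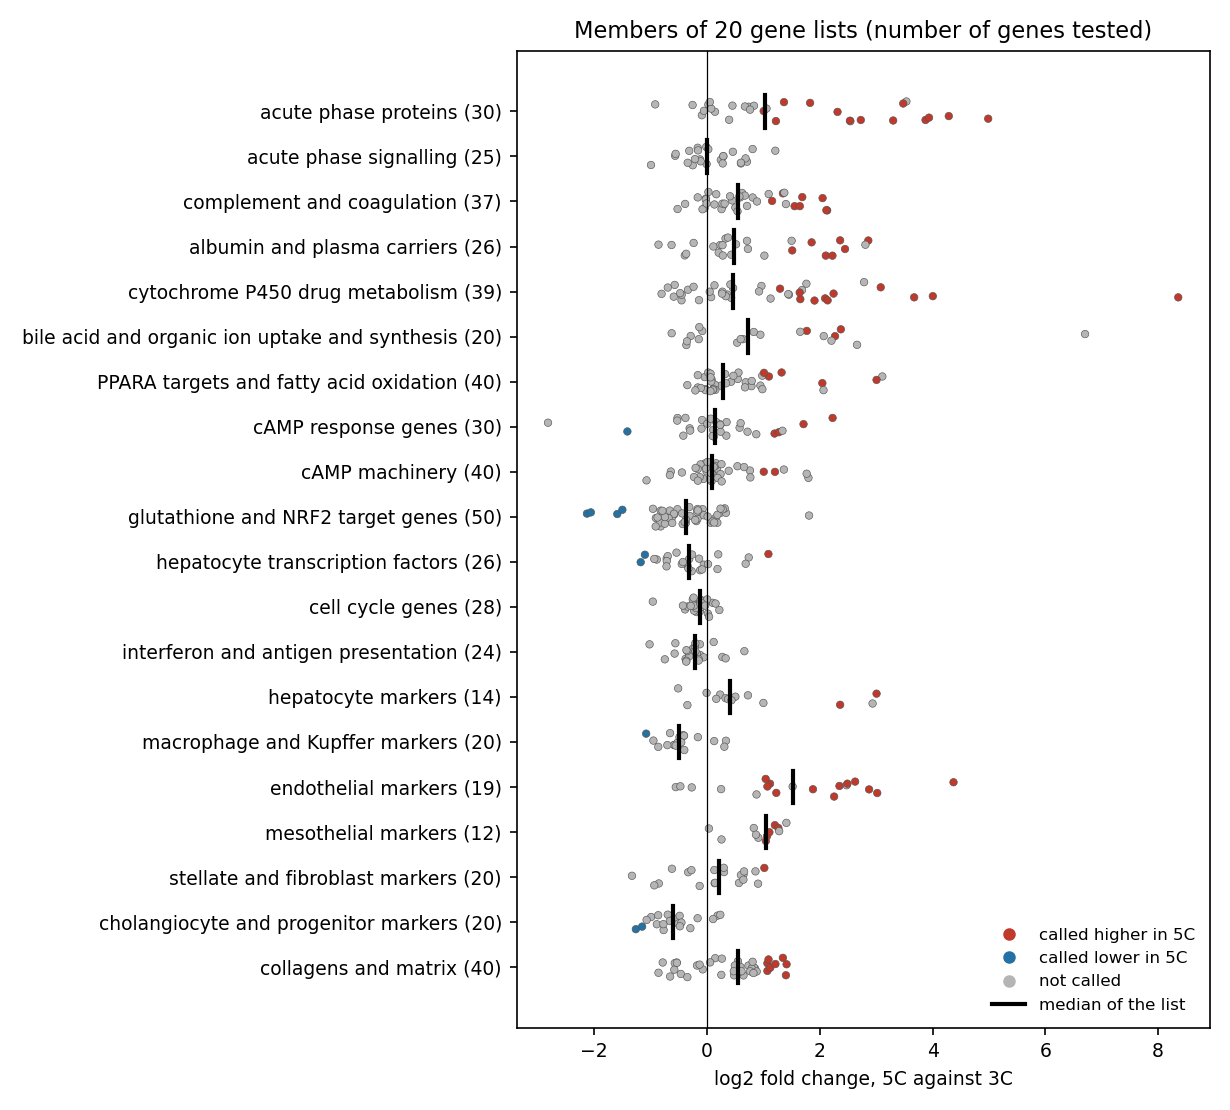
Log2 fold change of 5C against 3C (horizontal axis) of the members of 20 gene lists (rows, with the number of genes tested), with 1 point per gene and a black bar at the median of each list. Called genes are coloured. Acute phase proteins, endothelial and mesothelial markers have medians over 1. Glutathione and NRF2 target genes, hepatocyte transcription factors, cell cycle genes, interferon genes, and macrophage and cholangiocyte markers lie mostly left of 0.

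Acute phase proteins were prominent among the rises. Of 30 genes tested, 13 (43.3%) were called higher in 5C and none lower, against 2.16% called higher over all genes. A further 6 passed the adjusted p with a smaller rise, and the list's median was 1.03. The number called higher was between 9 and 15 when any 1 library was left out. Orm1 encodes orosomucoid, a plasma carrier of basic drugs, and lies on chromosome 4 at 63261052 to 63272189 (GRCm39). It was at 5.57 and 7.92 CPM in the 3C libraries and at 134 and 120.4 CPM in the 5C libraries, beside 3.05 and 2.11 CPM in DMSO. The groups were far apart for Orm1 (log2 fold change 4.29, SE 0.21, adjusted p 0.000135). Fgl1, a fibrinogen-like protein secreted by hepatocytes, went from 5.75 and 5.51 CPM to 46.9 and 60.2 CPM (3.30, SE 0.21, adjusted p 0.000152). Fgl1 lies on chromosome 8 at 41644457 to 41668205.

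The remaining acute phase genes with large rises were lower in level or less certain. Orm2, a close relative of Orm1, was at 0.302 and 0.601 CPM in 3C and at 7.57 and 5.31 CPM in 5C (3.88, SE 0.44). Serum amyloid A, the classic acute phase protein of mice, is encoded by Saa1 and Saa2. Saa1 went from 0.151 and 0.806 CPM to 7.92 and 6.35 CPM (3.94, SE 0.65), and its fold change ranged from 3.19 to 5.60 when 1 library was left out. Saa2 was at 0 and 0.176 CPM in 3C, which is at or under the floor, and at 3.42 and 2.14 CPM in 5C. Its adjusted p of 0.0198 became 0.0928 without 5C replicate 1 and 0.0650 without 5C replicate 2. Serpina3k, a secreted serpin, went from 15.7 and 15.9 CPM to 135 and 205 CPM (3.48, SE 0.33). Its adjusted p of 0.00552 was 0.0597 with 3C replicate 1 left out and 0.0567 with 3C replicate 2 left out, with fold changes of 3.47 and 3.49. Orm1, Orm2, Saa1 and Saa2 share 14.95% to 32.1% of their 50-base words with other genes, mostly with each other, so the split of reads within a pair is uncertain.

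The genes that relay the acute phase signal had smaller changes. The list held 25 tested genes for cytokines of the interleukin-6, interleukin-1 and tumour necrosis factor families, their receptors and downstream factors, and glucocorticoid signalling. None was called by edgeR, where 3.01% of all genes were called. At any fold 5 passed the adjusted p as higher and 3 as lower, and 14 had an unadjusted p under 0.05. DESeq2 called none, and edgeR called 1 as lower without 3C replicate 1. Stat3, the transcription factor downstream of the interleukin-6 receptor, was at 239 and 223 CPM in 3C and at 312 and 301 CPM in 5C (0.46, SE 0.07, adjusted p 0.00308). Il6st, the shared receptor subunit gp130, had a log2 fold change of 0.24 (SE 0.09, adjusted p 0.123). Fkbp5, a glucocorticoid target, had one of -0.34 (SE 0.08, adjusted p 0.0275).

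Other secreted plasma proteins of the liver were also higher. Of 37 complement and coagulation genes, 8 (21.6%) were called higher in 5C and none lower, and this count was 5 without any 1 of the 4 cocktail libraries. Plg, the precursor of the clot-dissolving protease plasmin, went from 37.4 and 41.4 CPM in 3C to 129 and 185 CPM in 5C (2.05, SE 0.17, adjusted p 0.000896). Serpinc1 encodes antithrombin, the main inhibitor of thrombin. It was at 11.2 and 11.7 CPM in 3C and at 48.5 and 47.7 CPM in 5C (2.12, SE 0.25). Proz (1.69, SE 0.23), a cofactor in the inhibition of factor X, and Mbl1 (1.65, SE 0.23), a mannose-binding lectin that starts complement activation, were called higher as well. These 4 calls held when any 1 library was left out.

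Among 26 genes for albumin and plasma carriers, 7 (26.9%) were called higher and none lower, and most of the 7 were apolipoproteins. Apoa4, a protein of triglyceride-rich particles, was at 178 and 208 CPM in 3C and at 861 and 1172 CPM in 5C, beside 49.0 and 36.4 CPM in DMSO (2.45, SE 0.21, adjusted p 0.00162). Apoa5, which promotes triglyceride clearance, went from 10.1 and 9.63 CPM to 62.8 and 75.5 CPM (2.86, SE 0.16). Apoc3, an inhibitor of that clearance, went from 18.2 and 19.1 CPM to 84.7 and 100.1 CPM (2.36, SE 0.15). Apoa2 of high-density lipoprotein (2.11, SE 0.19) and Hrg, the histidine-rich glycoprotein (1.86, SE 0.14), were called too. The most abundant plasma protein genes moved little. Alb, albumin, was at 7402 and 7769 CPM in 3C and at 6766 and 10400 CPM in 5C, so that the groups overlapped (0.23, SE 0.20, adjusted p 0.588). Trf, transferrin, passed the adjusted p at a small fold (0.37, SE 0.10, adjusted p 0.0379).

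Enzymes of drug metabolism rose in part. Of 39 cytochrome P450 genes and their reductase, 11 (28.2%) were called higher in 5C and none lower, and the count was 6 without 5C replicate 2. Cyp3a11 is the main mouse counterpart of the human drug-metabolising CYP3A4 and lies on chromosome 5 at 145791236 to 145816867. It was at 18.7 and 12.3 CPM in 3C and at 236 and 244 CPM in 5C, beside 1.44 and 0.516 CPM in DMSO. Cyp3a11 thus stood 4.005 higher on the log2 scale (SE 0.36, adjusted p 0.00525). Cyp2c29 went from 31.9 and 25.8 CPM to 124 and 139.6 CPM (2.24, SE 0.16). Cyp2b10, the usual reporter gene of the nuclear receptor CAR, went from 20.6 and 16.3 CPM to 78.8 and 78.2 CPM (2.14, SE 0.21). Cyp3a25 went from 3.38 and 1.86 CPM to 32.7 and 31.9 CPM (3.67, SE 0.51). Its adjusted p of 0.00994 became 0.0541 without 5C replicate 1, 0.0588 without 5C replicate 2 and 0.0503 with DESeq2. Cyp2d40 had no count in 3C and was at 0.376 and 0.809 CPM in 5C, at least 3.32-fold over the floor of the 3C libraries, and its call was lost without 3C replicate 1 or 2 (adjusted p 0.0536 and 0.0537) or 5C replicate 2 (adjusted p 0.0812). The receptors themselves were not called. Nr1i2, which encodes PXR and drives Cyp3a11, had a log2 fold change of -0.06 (SE 0.10, adjusted p 0.808). Nr1i3, which encodes CAR and drives Cyp2b10, had one of 0.74 (SE 0.39, adjusted p 0.293).

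Transporters and enzymes around bile acids and fatty acids gave single large rises. Abcb11, the bile salt export pump, was at 1.10 and 1.83 CPM in 3C and at 16.4 and 14.6 CPM in 5C (3.45, SE 0.49, adjusted p 0.00538). Of 20 genes of bile acid synthesis and organic ion uptake, 3 (15%) were called higher and none lower. Slco1a4, an organic anion uptake carrier, went from 3.73 and 4.41 CPM to 18.9 and 19.1 CPM (2.27, SE 0.18). Slc27a5, which activates bile acids for conjugation, went from 3.65 and 3.14 CPM to 17.6 and 16.4 CPM (2.37, SE 0.22). Among 40 genes of fatty acid oxidation, the fatty acid receptor PPARA and its targets, 5 (12.5%) were called higher and none lower, or 3 without 5C replicate 2. Fabp1, the fatty acid binding protein of hepatocytes, went from 8.88 and 8.75 CPM to 55.7 and 80.8 CPM (3.01, SE 0.26), and Cyp4a10, a fatty acid hydroxylase, from 6.37 and 4.97 CPM to 18.3 and 26.8 CPM (2.04, SE 0.23). At any fold 13 of the 40 passed the adjusted p as higher and none as lower, 32 had a positive log2 fold change, and the median was 0.28. Values near 0 were among the rest. Cpt1a, the gate of fatty acid entry into mitochondria, had a log2 fold change of -0.03, Acadm one of 0.08 and Hadha one of 0.02.

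Amino acid breakdown and conjugation enzymes gave less firm counts. Of 37 genes of gluconeogenesis, the urea cycle and amino acid breakdown, 6 (16.2%) were called higher and none lower. With 3C replicate 1 left out 3 were called, and with 5C replicate 2 left out 1. Uroc1, urocanase of histidine breakdown, kept its call in each of these fits and went from 4.14 and 4.91 CPM to 31.5 and 28.1 CPM (2.77, SE 0.23). Of 25 conjugation genes, 4 were called higher and 1, Ugt2b35, lower. The higher count was 1 without 3C replicate 1, 2 without 3C replicate 2 or 5C replicate 2, and 7 without either DMSO library. Ugt2b35 had a log2 fold change of -1.21 (SE 0.21) and an adjusted p of 0.0182, which was 0.0770 without 3C replicate 1, 0.0638 without DMSO replicate 1 and 0.0618 without DMSO replicate 2. Without 5C replicate 2 its fold change was -0.94. Ugt1a1, the enzyme that conjugates bilirubin, went from 8.42 and 8.22 CPM to 24.3 and 27.5 CPM (1.69, SE 0.14). It shares 71.3% of its words with the other genes of the Ugt1a locus, so these reads may belong to a neighbour.

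**Figure D3:**
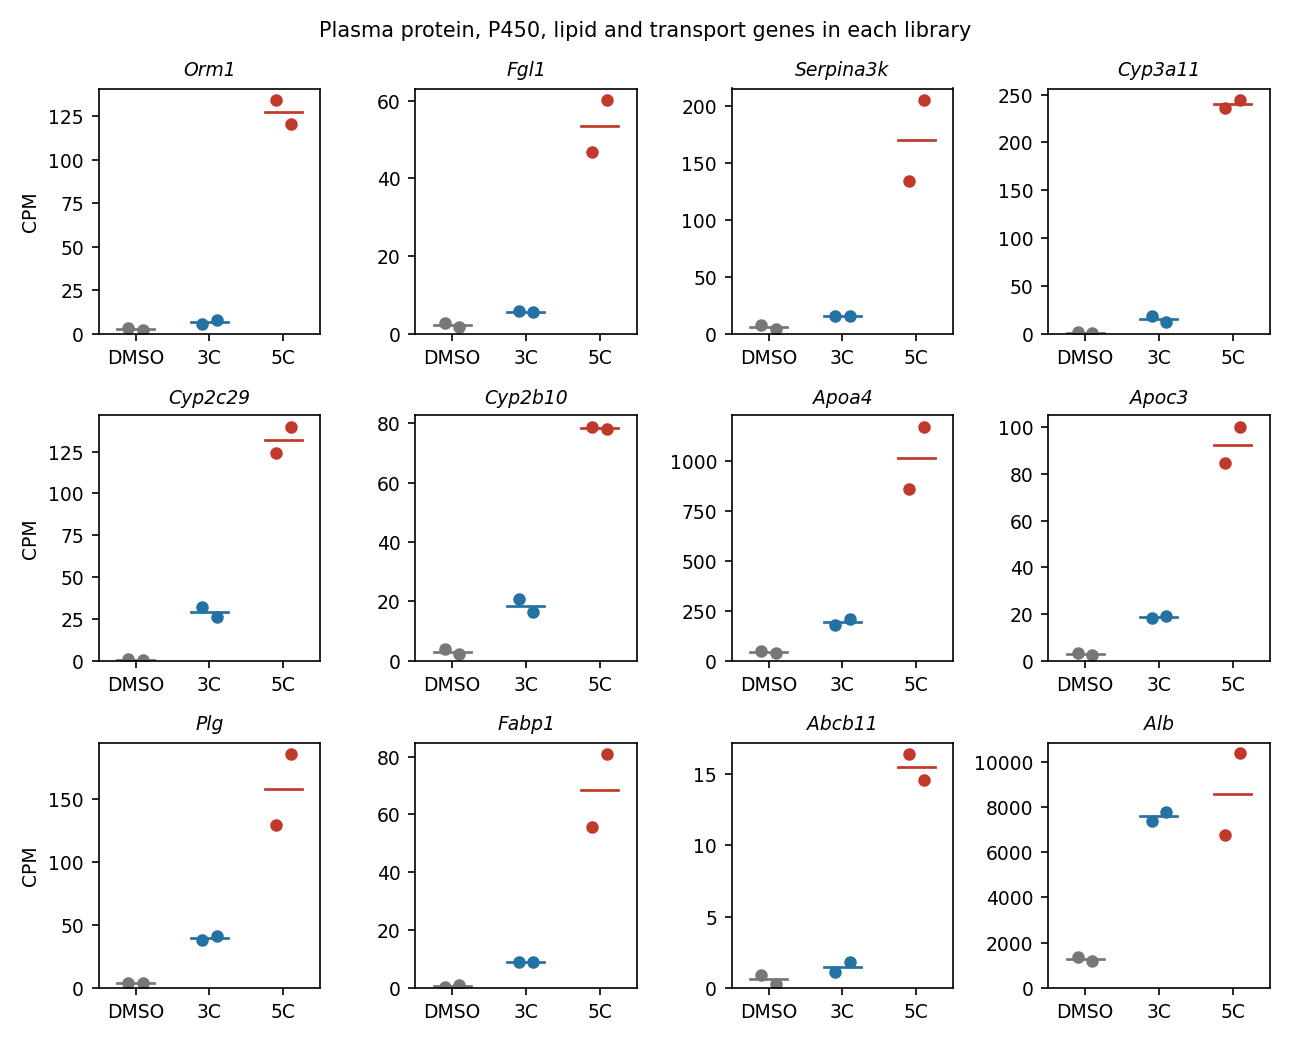
CPM (vertical axes, each from 0) of 12 genes in each library of DMSO, 3C and 5C (horizontal axis), with 1 point per library and a line at the mean of the 2. In 11 of the panels both 5C libraries lie above both 3C libraries, while for Alb the 5C libraries lie on either side of the 3C libraries.

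Single genes outside the lists had rises of the same size. Wfdc21, a secreted protein with a protease inhibitor fold, went from 0.996 and 1.08 CPM to 17.4 and 21.5 CPM (4.27, SE 0.34). Slc25a47, a mitochondrial carrier found mainly in liver, went from 9.04 and 9.53 CPM to 59.7 and 62.6 CPM (2.77, SE 0.10, adjusted p 1.48e-05). Angptl7, a secreted angiopoietin-like protein, went from 6.98 and 7.43 CPM to 48.4 and 50.0 CPM (2.82, SE 0.11, adjusted p 1.48e-05). Unlike the hepatocyte genes above, its DMSO libraries were higher than those of 3C, at 18.5 and 16.2 CPM. Ces1c, a carboxylesterase of blood plasma, went from 1.95 and 0.879 CPM to 9.28 and 12.03 CPM (2.97, SE 0.50), with an adjusted p of 0.00841 that became 0.0638 without 5C replicate 2.

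The transcription factors that maintain hepatocytes did not rise with these genes. Of 26 tested, 20 had a negative log2 fold change, 2 were called lower and 1 higher, and 11 passed the adjusted p as lower at any fold against 2 as higher. Without 5C replicate 1, 4 were called lower. Foxa2, a forkhead pioneer factor, was at 33.6 and 27.2 CPM in 3C and at 14.8 and 11.2 CPM in 5C (-1.18, SE 0.15, adjusted p 0.00185). In FPKM, Foxa2 was at 12.6 and 12.2 in DMSO, against 14.7 and 12.1 in 3C and 6.75 and 4.74 in 5C. Onecut2, a cut-homeobox factor of developing liver and bile duct, was at 147 and 134 CPM in 3C and at 63.3 and 63.1 CPM in 5C (-1.10, SE 0.08). Hnf4a, a nuclear receptor central to hepatocyte identity, went from 260 and 247 CPM to 198 and 187 CPM (-0.35, SE 0.07, adjusted p 0.0119). Gata4 was higher, at 38.0 and 33.9 CPM in 3C and 77.8 and 70.0 CPM in 5C (1.09, SE 0.09). On log2(FPKM + 1), where limma took the place of edgeR, Onecut2 and Gata4 were no longer past a log2 fold change of 1.

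Genes of glutathione metabolism, other NRF2 targets and further antioxidant and detoxifying enzymes, taken as 1 list, were mostly lower in 5C. Glutathione is the main thiol antioxidant of the cell, and many of its enzymes are targets of the transcription factor NRF2. Of 50 genes tested, 4 (8%) were called lower and none higher, against 0.852% called lower over all genes, and 25 passed the adjusted p as lower at any fold against 2 as higher. The list's median was -0.38. Without 5C replicate 1, 8 were called lower. Gclc encodes the catalytic subunit of glutamate-cysteine ligase, the first and rate-limiting step of glutathione synthesis, and lies on chromosome 9 at 77661797 to 77701770. It was at 719 and 613 CPM in 3C and at 264 and 164 CPM in 5C, beside 470.3 and 492 CPM in DMSO (-1.59, SE 0.22, adjusted p 0.00922). Its adjusted p was 0.0543 without DMSO replicate 1 and 0.0531 without DMSO replicate 2. Slc7a11, the cystine importer that supplies glutathione synthesis, was at 247 and 206 CPM in 3C, at 91.3 and 63.6 CPM in 5C and at 296 and 281 CPM in DMSO (-1.50, SE 0.17, adjusted p 0.00234).

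Among glutathione transferases of the alpha class, Gsta1 and Gsta2 were called lower, while Gsta3 (-0.82, SE 0.08, adjusted p 0.000472) and Gsta4 (-0.66, SE 0.10, adjusted p 0.00296) passed the adjusted p at a smaller fold. Gsta1 went from 66.9 and 52.1 CPM in 3C to 17.2 and 9.07 CPM in 5C (-2.13, SE 0.32, adjusted p 0.0141, or 0.05001 without 3C replicate 1). Gsta2 went from 11.3 and 8.19 CPM to 2.68 and 1.83 CPM (-2.06, SE 0.26), and Gm3776, another gene of the family, from 54.9 and 47.6 CPM to 16.0 and 8.48 CPM (-2.02, SE 0.28). Gsta1, Gm3776 and Gsta2 share 91.2%, 94.2% and 40.4% of their words with other genes, mostly within the family, so these are not 3 independent measurements. Nfe2l2, which encodes NRF2 itself, had a log2 fold change of -0.40 (SE 0.07, adjusted p 0.00741). Hmox1, heme oxygenase, another NRF2 target, moved the other way at a small fold (0.31, SE 0.07, adjusted p 0.0178). Abcc4, a transporter that exports cyclic nucleotides and conjugated organic anions, fell from 449 and 371 CPM to 139 and 88.7 CPM (-1.80, SE 0.22, adjusted p 0.00543). Abcc4 lies on chromosome 14 at 118720103 to 118943924.

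Genes that respond to cAMP moved in both directions. Of 30 tested, 4 were called higher (13.3%) and 1 lower (3.33%), and the list's median was 0.14. Without 3C replicate 1 or 5C replicate 2 only 1 was called higher, and without 3C replicate 2 there were 2. Pck1, phosphoenolpyruvate carboxykinase, the first committed enzyme of gluconeogenesis, was at 24.4 and 27.9 CPM in 3C and at 92.9 and 143 CPM in 5C, beside 3.35 and 1.43 CPM in DMSO (2.23, SE 0.40, adjusted p 0.0372). The groups were well apart, yet the adjusted p was 0.0914 without 5C replicate 2, 0.230 without 3C replicate 1 and 0.187 without 3C replicate 2, with fold changes of 1.86 to 2.52. Pde4b, a phosphodiesterase that degrades cAMP, was at 7.79 and 9.56 CPM in 3C and at 17.2 and 21.2 CPM in 5C (1.20, SE 0.17, adjusted p 0.00245), and its call held when any 1 library was left out. Fosb, an AP-1 subunit of the immediate early response, went from 2.22 and 3.02 CPM to 4.59 and 7.62 CPM (1.27, SE 0.28, adjusted p 0.0168), and this became 0.134 without 3C replicate 1 and 0.115 without 5C replicate 2. In FPKM, both DMSO libraries lay above both 5C libraries for Fosb, at 2.73 and 2.48 against 1.21 and 1.94. They lay below both 5C libraries for Pck1, Pde4b and Nr4a3, an orphan nuclear receptor. Nr4a3 was at 0.468 and 0.293 CPM in 3C and 1.35 and 1.07 CPM in 5C. Its adjusted p of 0.0455 ranged from 0.0501 to 0.248 when each of the 6 libraries was left out.

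Areg, amphiregulin, a ligand of the epidermal growth factor receptor, was the 1 cAMP response gene called lower. It was at 26.5 and 25.8 CPM in 3C and at 11.6 and 7.35 CPM in 5C (-1.41, SE 0.21, adjusted p 0.00375), and the call held when any 1 library was left out. Other well known cAMP targets were not called. G6pc, glucose-6-phosphatase, the last step of glucose release, was at 12.6 and 11.2 CPM in 3C and at 18.0 and 23.9 CPM in 5C (0.87, SE 0.18, adjusted p 0.0121). Nr4a1 had a log2 fold change of 0.58 (SE 0.12, adjusted p 0.0150), and Sik1, a kinase that restrains CREB coactivators, had one of -0.53 (SE 0.07, adjusted p 0.00152). Crem (0.17, SE 0.14, adjusted p 0.538), Ppargc1a (-0.38, SE 0.23, adjusted p 0.363), Tat (-0.42, SE 0.20, adjusted p 0.287), Pde4d (-0.10, SE 0.21, adjusted p 0.846) and Pde10a (0.10, SE 0.22, adjusted p 0.853) did not pass the test. Igfbp1, a secreted binding protein of insulin-like growth factors, was at 1643 and 1538 CPM in 3C and at 975 and 1159 CPM in 5C (-0.52, SE 0.10, adjusted p 0.00964).

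The components that make, sense and degrade cAMP were mostly level. Of 40 tested, 2 (5%) were called higher, against 2.16% over all genes, and none lower. Adcy1, an adenylate cyclase stimulated by calcium and calmodulin, went from 29.5 and 22.8 CPM to 45.2 and 56.0 CPM (1.01, SE 0.18, adjusted p 0.00787), just past the fold limit. It was under that limit or past the p limit without 3C replicate 2 (0.84, adjusted p 0.0619), 5C replicate 2 (0.82, adjusted p 0.0587) and DMSO replicate 2 (1.00). Pde7b, another phosphodiesterase, had a log2 fold change of 1.20 (SE 0.22, adjusted p 0.00830, or 0.0792 without 3C replicate 1 and 0.0650 without 5C replicate 2). The number of higher genes was 0 without 5C replicate 2, 1 without either 3C library, 5 without DMSO replicate 1 and 4 without DMSO replicate 2. For Pde7b, FPKM were 2.66 and 3.12 in DMSO, above 1.46 and 1.92 in 5C, while for Adcy1 both DMSO libraries lay below those of 5C. Gnas, the stimulatory G protein subunit, was at 1031 and 1011 CPM in 3C and at 1050.4 and 1028 CPM in 5C (0.08, SE 0.06). Prkar1a, a regulatory subunit of protein kinase A, had a log2 fold change of 0.05 (SE 0.07).

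Promoters are shown for 4 of the called cAMP genes, picked because they hold at least the core of the element that CREB binds. The full element reads TGACGTCA, a palindrome, and its 5-letter core TGACG, and both strands were searched in the 250 bases before and 50 after each annotated start. The 150 bases before the start are printed 5′ to 3′ on the gene's strand, from RefSeq, with cores and full elements in capitals. Each sequence was found once on its chromosome in GRCm39.
Areg, chr5:91287308-91287457 (+): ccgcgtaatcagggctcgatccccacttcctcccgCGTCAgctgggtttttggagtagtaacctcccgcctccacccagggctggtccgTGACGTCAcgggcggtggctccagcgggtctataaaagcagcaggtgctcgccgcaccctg
Pck1, chr2:172994716-172994865 (+): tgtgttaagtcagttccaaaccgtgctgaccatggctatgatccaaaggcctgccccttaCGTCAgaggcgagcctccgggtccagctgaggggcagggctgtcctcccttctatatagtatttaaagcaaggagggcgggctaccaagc
Fosb, chr7:19043971-19044120 (-): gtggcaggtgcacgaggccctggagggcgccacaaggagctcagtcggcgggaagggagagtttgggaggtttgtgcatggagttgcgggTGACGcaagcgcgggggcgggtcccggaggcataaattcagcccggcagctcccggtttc
Pde4b, chr4:102278602-102278751 (+): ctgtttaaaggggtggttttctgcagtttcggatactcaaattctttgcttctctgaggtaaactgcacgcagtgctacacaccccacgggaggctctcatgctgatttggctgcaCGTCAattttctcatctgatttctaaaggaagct

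The core began 90 bases before the start in Pck1, 60 in Fosb and 34 in Pde4b, for which only 1 of 4 annotated promoters, the one shown, held it. Nr4a3, also called higher, held the core too, but its promoter is not printed. Areg held a full element 61 bases and a further core 115 bases before its start, and it was the gene of the 4 that was lower in 5C. Over all genes tested, 12849 had a promoter in the table by symbol, and 32.2% of these held the core and 3.18% the full element. Of the 25 cAMP response genes with a promoter, 72.0% held the core and 8% the full element. Among called genes the shares were not above those of all genes. The core stood in 22.4% of 299 promoters of higher genes and 18.2% of 99 promoters of lower genes, and the full element in 1.67% and 3.03%. Acute phase genes held the core in 8.70% of 23 promoters. These are matches of letters in a window, and sites outside the window were not searched.

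Epithelial genes of bile duct and progenitor type were lower in 5C. Of 20 cholangiocyte and progenitor markers, 17 had a negative log2 fold change, 2 (10%) were called lower and none higher, and 8 passed the adjusted p as lower. The count was 1 without 3C replicate 2 or 5C replicate 2, and 3 without either DMSO library or 5C replicate 1. Cdh1, E-cadherin of epithelial junctions, was at 280 and 303 CPM in 3C and at 122 and 132 CPM in 5C, beside 139 and 162 CPM in DMSO (-1.15, SE 0.10, adjusted p 0.000270). Krt18 and Krt8, keratins shared by hepatocytes and duct cells, passed the adjusted p at a smaller fold (-0.77, SE 0.11 and -0.66, SE 0.13). Outside the list, Krt20, a keratin of intestinal epithelium, went from 45.2 and 47.7 CPM to 13.9 and 12.9 CPM (-1.74, SE 0.13). Cdh17, an intestinal cadherin, went from 30.2 and 26.3 CPM to 9.56 and 7.99 CPM (-1.64, SE 0.14). The summed level of the 20 markers was 5662.5 and 6031.4 CPM in 3C, 4076.6 and 3594.9 CPM in 5C and 3915.7 and 4632.1 CPM in DMSO.

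**Figure D4:**
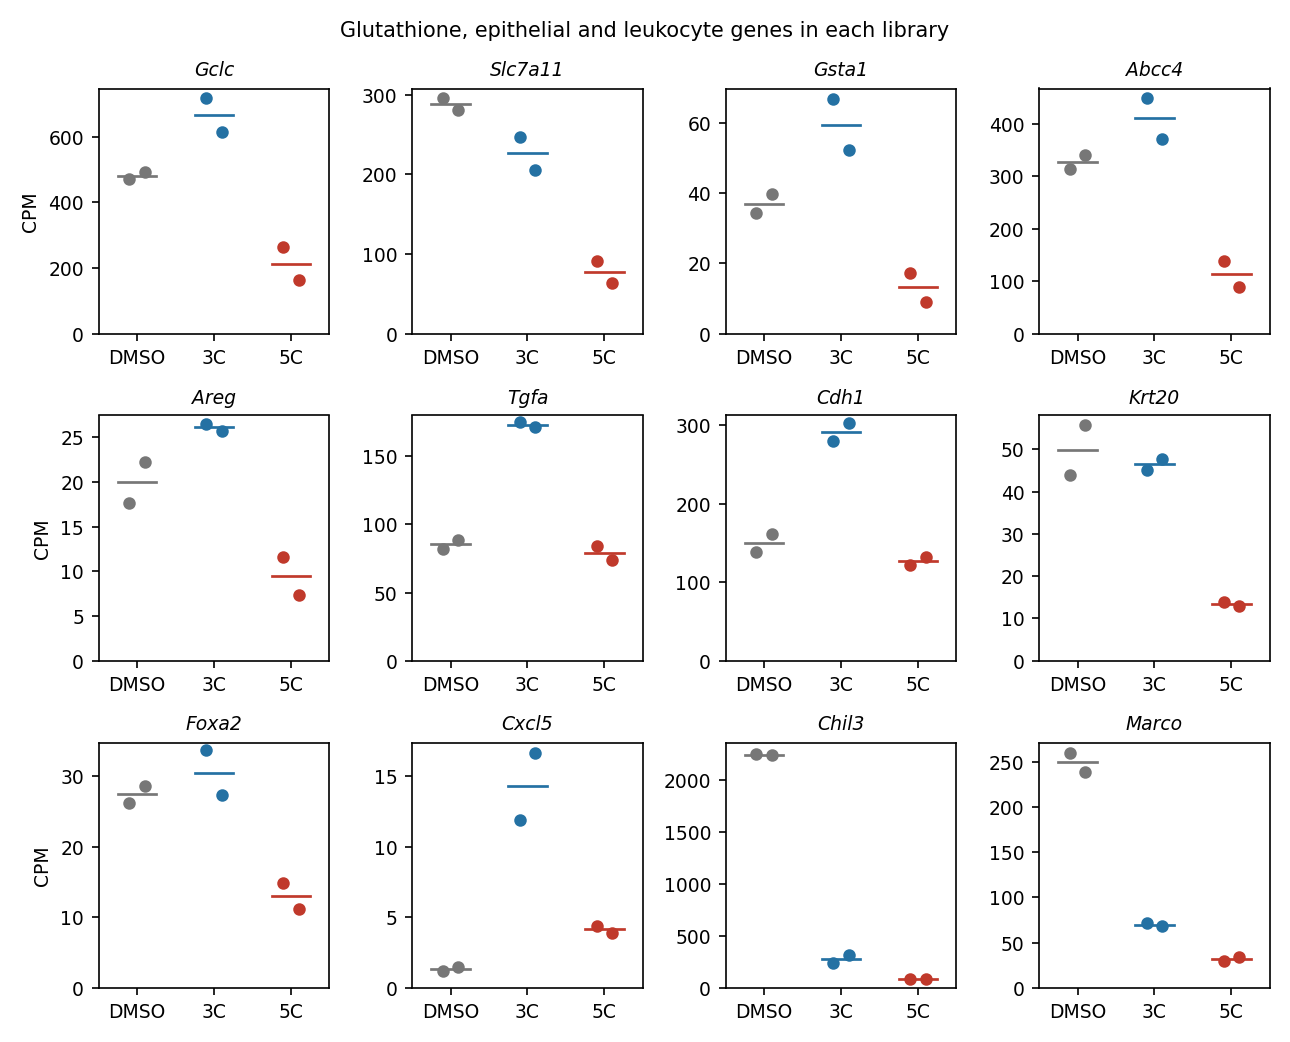
CPM (vertical axes, each from 0) of 12 genes in each library of DMSO, 3C and 5C (horizontal axis), with 1 point per library and a line at the mean of the 2. Both 5C libraries lie below both 3C libraries in all panels, and both DMSO libraries lie above both 3C libraries for Slc7a11, Chil3 and Marco.

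Macrophage genes were lower as well. Cells are counted here only through their RNA, so fewer cells of a type and less of its RNA per cell cannot be told apart, and this holds for all markers that follow. Of 20 macrophage and Kupffer cell markers, 1 was called lower and none higher, while 15 passed the adjusted p as lower and none as higher, with a median of -0.49. Their summed level was 5848.5 and 5880.6 CPM in 3C, 3899.3 and 3862.3 CPM in 5C and 17253.6 and 18658.3 CPM in DMSO. Marco, a scavenger receptor of macrophages, went from 71.4 and 68.7 CPM to 29.6 and 34.3 CPM (-1.08, SE 0.09), or -0.96 without 5C replicate 1, which is under the fold limit. Chil3, a secreted chitinase-like protein of alternatively activated macrophages, went from 240.3 and 319 CPM to 79.5 and 85.2 CPM (-1.71, SE 0.13), beside 2252 and 2236 CPM in DMSO. Cxcl5, a neutrophil chemoattractant listed with chemokines and not with macrophage markers, went from 11.9 and 16.6 CPM to 4.39 and 3.90 CPM (-1.73, SE 0.22). Unlike Chil3, Cxcl5 was lower in DMSO than in 3C, with FPKM of 0.661 and 0.825 against 6.66 and 9.47. Ptgs2, the inducible cyclooxygenase, moved the other way, from 3.16 and 3.37 CPM to 6.96 and 7.74 CPM (1.22, SE 0.17). Its DMSO libraries were higher than those of 5C, at 2.68 and 2.33 FPKM against 1.43 and 1.54.

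Endothelial genes were higher in 5C, and of the 33 lists theirs had the largest share called among those with more than 1 gene tested. Of 19 markers tested, 12 (63.2%) were called higher in 5C and none lower, with a median of 1.52. With 3C replicate 1 left out 6 were called, and with 5C replicate 2 left out 5. Apln, a peptide of sprouting endothelium, was at 4.30 and 8.82 CPM in 3C and at 40.4 and 52.5 CPM in 5C, beside 0.328 and 0.485 CPM in DMSO (2.87, SE 0.37, adjusted p 0.00644). Apln lies on the X chromosome at 47114019 to 47123775. Emcn, endomucin, went from 0.936 and 1.69 CPM to 7.18 and 13.3 CPM (3.02, SE 0.40). Tie1, an endothelial receptor kinase, went from 2.79 and 4.78 CPM to 13.8 and 23.3 CPM (2.35, SE 0.33). Sox17, a factor of arterial endothelium, went from 0.151 and 0.293 CPM to 3.49 and 5.46 CPM (4.37, SE 0.63). These 4 calls held when any 1 library was left out. Cdh5, the cadherin of endothelial junctions, went from 6.45 and 14.9 CPM to 43.3 and 72.2 CPM (2.49, SE 0.51), with an adjusted p of 0.04996 that became 0.0914 without 5C replicate 2, 0.0553 without 5C replicate 1 and 0.145 and 0.147 without DMSO replicates 1 and 2.

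Of the 19 endothelial markers tested, 7 were not called, and these included the 3 most abundant ones, Stab1, Eng and Lyve1. Stab1, a scavenger receptor of sinusoidal endothelium that macrophages also carry, was lower in 5C, at 823 and 780.0 CPM in 3C, 551 and 502 CPM in 5C and 1969.5 and 1462 CPM in DMSO (-0.55, SE 0.12, adjusted p 0.0192). Lyve1 had a log2 fold change of -0.27 (SE 0.16, adjusted p 0.367), and Eng one of 0.25 (SE 0.11, adjusted p 0.228). The other 4 were Pecam1 (2.48, SE 0.61, adjusted p 0.0810), Tek (1.52, SE 0.64, adjusted p 0.181), Stab2 (0.88, SE 0.42, adjusted p 0.264) and Vwf (-0.47, SE 0.29, adjusted p 0.398). Because Stab1 dominated the sum, the summed level of the 20 endothelial genes was 1059.6 and 1070.5 CPM in 3C, 950.7 and 1056.1 CPM in 5C and 2469.7 and 1991.6 CPM in DMSO, with no rise.

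Mesothelial and matrix genes were higher in 5C. Of 12 markers of mesothelium, the lining of the liver surface, all had a positive log2 fold change, 5 (41.7%) were called higher and 8 passed the adjusted p as higher. Without 3C replicate 2, 3 were called: Bnc1, Wt1 and Upk3b, with fold changes of 0.95 to 0.96, lost their calls, while Podxl gained one. Gpm6a, a membrane glycoprotein, was at 207 and 182 CPM in 3C, 448 and 455 CPM in 5C and 226 and 174 CPM in DMSO (1.26, SE 0.12, adjusted p 0.000418). Upk1b, a uroplakin, went from 176 and 158 CPM to 394 and 348 CPM (1.20, SE 0.10). Msln, mesothelin, changed less, from 582 and 577 CPM to 655 and 680 CPM (0.26, SE 0.07, adjusted p 0.0448). The summed level of the 12 genes was 1563.6 and 1414.9 CPM in 3C, 2694.2 and 2589.1 CPM in 5C and 1353.3 and 1109.8 CPM in DMSO.

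Of 40 collagen and matrix genes, 8 (20%) were called higher and none lower, and 23 passed the adjusted p as higher against 3 as lower. Without 5C replicate 2, 4 were called higher. Col5a2, a chain of fibrillar collagen V, was at 728 and 789 CPM in 3C, 1810.4 and 2052 CPM in 5C and 1146 and 1013 CPM in DMSO (1.40, SE 0.09, adjusted p 0.000139). Col5a2 lies on chromosome 1 at 45412554 to 45542442. Eln, elastin, went from 13.2 and 15.6 CPM to 36.2 and 37.8 CPM (1.41, SE 0.15). Timp1, an inhibitor of matrix proteases, was at 26.5 and 27.1 CPM in 3C, 59.6 and 60.4 CPM in 5C and 54.6 and 66.02 CPM in DMSO (1.21, SE 0.10). Serpinh1, the chaperone of procollagen, went from 548 and 597 CPM to 1236 and 1265 CPM (1.18, SE 0.07). Col1a1, the main chain of collagen I, passed the adjusted p under the fold limit, at 2027 and 2149 CPM in 3C, 3668 and 3880 CPM in 5C and 3482 and 2921 CPM in DMSO (0.91, SE 0.09, adjusted p 0.000562). For Col5a2, Timp1, Serpinh1 and Col1a1 the 3C libraries were below those of DMSO.

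**Figure D5:**
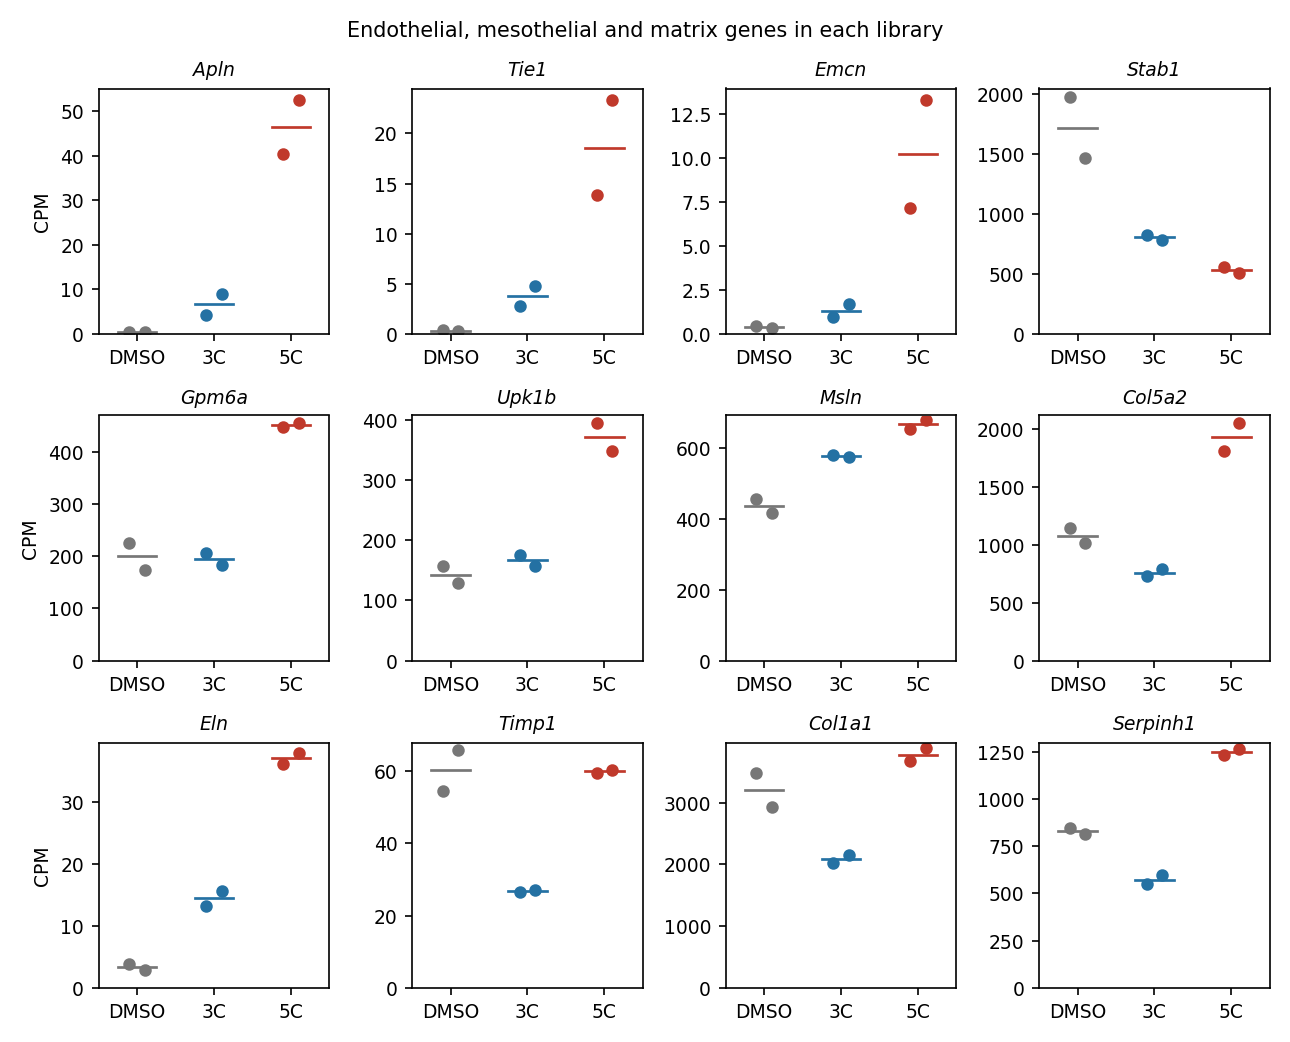
CPM (vertical axes, each from 0) of 12 endothelial, mesothelial and matrix genes in each library of DMSO, 3C and 5C (horizontal axis), with 1 point per library and a line at the mean of the 2. Both 5C libraries lie above both 3C libraries in all panels except that of Stab1, where they lie below.

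Stellate cell and fibroblast markers gave a mixed picture. Of 20 tested, 1, Col1a2, was called higher at 1.02 (SE 0.09), and its fold change was 0.99 with 3C replicate 1 left out and 0.93 with 5C replicate 2 left out. Without 5C replicate 2, 3 of the list were called lower, and without 3C replicate 1, 1 was. At any fold 8 passed the adjusted p as higher and 2 as lower. The summed level of the list was 8784.2 and 8929.6 CPM in 3C, 13553.7 and 14488.7 CPM in 5C and 11333.4 and 10102.2 CPM in DMSO, with Col1a1 and Col1a2 as its largest members. Hepatocyte markers summed to 16714.0 and 17777.5 CPM in 3C, 17132.1 and 23180.8 CPM in 5C and 4137.4 and 3957.6 CPM in DMSO, so 5C replicate 2 stood above the rest and 5C replicate 1 between the 3C libraries. Of 8 T and B cell markers, 1 was tested, Cd4 (-1.09, SE 1.45), and the sums were at most 0.652 CPM. The paper reports that, at best, nearly all cells isolated by this protocol from the AAV-TBG-Cre mice carried tdTomato. It also stained DMSO and 5C cultures for albumin and Foxa2 protein after 16 days, and reports larger shares of positive cells in 5C. Foxa2 RNA was lower in 5C than in DMSO, without a test. Neither RNA quality nor the makeup of the sequenced cultures was measured separately, and the part of the makeup in the changes above was not tested.

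Several lists held no called gene. None of 28 cell cycle genes, 24 interferon and antigen presentation genes, 18 CDK inhibitors and p53 targets, 16 circadian clock genes, 13 genes of the insulin-like growth factor axis and 13 iron genes was called by edgeR in either direction. The iron list leaves out Hamp, which encodes the iron hormone hepcidin. Hamp was counted among the acute phase proteins and was called higher. Over all genes only 3.01% were called, so the lack of calls in lists this short says little about their members. An unadjusted p under 0.05 was reached by 3 cell cycle, 4 interferon, 6 p53, 6 clock, 6 insulin-like growth factor and 8 iron genes. DESeq2 called 1 interferon gene as lower and none in the other 5 lists. On leaving out 1 library, 1 iron gene was called higher without either DMSO library, 1 interferon gene lower without either DMSO library and 1 higher without 3C replicate 1, and 1 cell cycle gene lower without 5C replicate 1. At any fold, 2 cell cycle genes passed the adjusted p as lower, among them Ccnd1, cyclin D1, at 283 and 278 CPM in 3C and at 152 and 126 CPM in 5C (-0.96, SE 0.14, adjusted p 0.00411). Among the p53 targets 3 passed as higher and 1 as lower, and among the interferon genes none passed in either direction, with 4 of 24 positive. Fth1, ferritin heavy chain, was at 3666 and 3678 CPM in 3C and 3639 and 3511 CPM in 5C (0.01, SE 0.07). Steap4, a metalloreductase, was at 280 and 256 CPM in 3C and 402 and 386 CPM in 5C (0.61, SE 0.10, adjusted p 0.00391). Cholesterol and fatty acid synthesis genes, which lie downstream of the ATP citrate lyase that ETC-1002 inhibits in both cocktails, had 1 of 35 called higher, or none without any 1 of the 4 cocktail libraries. Of the lists not named so far, 3 of 19 secreted serpins, 1 of 28 hypoxia and glycolysis genes, 1 of 21 genes of the pericentral and periportal zones and 2 of 14 hepatocyte markers were called higher and none lower. Among 25 ABC transporters 1 was called higher and 2 lower, and among 30 chemokines and inflammatory genes 1 higher and 3 lower. Over all genes 2.16% were called higher and 0.852% lower, so 1 call in lists such as these is not read as a result about their members. Without 3C replicate 1, 3C replicate 2 or 5C replicate 1, 1 transporter was called lower, and without 5C replicate 1, 2 inflammatory genes were called higher.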

How the data were processed

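RNA-seq of 6 cultures was analysed, 2 each of DMSO, 3C and 5C, grouped by the labels. Counts and FPKM were deposited per gene. The first were estimated counts, whole numbers made by the authors with featureCounts and Subread per the submitters' processing notes (build GRCm39). Values of 4, 8 and 12 were more frequent than their neighbours, so 4 units were taken as 1 fragment for the floor only. This is an assumption, since 16 did not stand out and 1 was the most frequent low value (6338 entries, against 4816 for 4). The second were FPKM values made by the authors, counts scaled to gene length and library size, used here only in alternative tests. Versions and the strand setting of the counting are not given in the sources used here, and the kit does not mark strand. Antisense transcripts overlap exons of Orm1, Abcc4, Apoa5, Serpinc1, Plg, Abcb11, Sox17 and Eln, among others, and their reads cannot be separated.

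Counts were tested in R 4.3.3 with edgeR 4.0.16 (TMM, filterByExpr, robust quasi-likelihood F test, all 6 libraries, group as the only term, 3 residual degrees of freedom), and p-values were adjusted by Benjamini-Hochberg over all genes tested. The SE is the size of the log2 fold change over the root of F. The script was tested on simulated data. Alternatives used DESeq2 1.42.0, limma 3.58.1 on log2(FPKM + 1) and log2(FPKM + 0.1), other scalings, filters and thresholds, a replicate block, and leaving out each library. Positions and shared 50-base words came from GRCm39 transcripts, promoters from RefSeq. Floors cover counting error only, while the SE also takes in the spread between libraries. Genes were named by rule: the 15 largest rises and 12 largest falls with a mean of at least 5 CPM, up to 6 called genes per list, the 3 most abundant members of lists without calls and of cAMP, transcription factor and cell type lists, and 9 cAMP targets. Nr1i2, Nr1i3, Cpt1a, Acadm, Hadha, Nfe2l2, Hmox1, Gsta3, Gsta4, Pecam1, Tek, Stab2, Vwf, Podxl and the genes outside the lists in the closing section were chosen after their values were seen. The comparison and lists were chosen with earlier results of these data known. Some genes that the rule named are not reported here.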

Additional observations from a re-analysis of the deposited data

How the results depend on the processing

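The count of 576 called genes (413 higher, 163 lower) depended most on the threshold. It was 2423 (1403 and 1020) without a limit on the fold, 1021 (666 and 355) with an unadjusted p, and 38 (33 and 5) when the test itself was set against a log2 fold change of 1. On log2(FPKM + 1) limma called 261 genes (203 and 58). Leaving out 1 library gave 365 to 640 genes, 237 to 478 higher and 95 to 171 lower; the lowest totals were those without 3C replicate 1 (365) and 5C replicate 2 (372). Other scalings, filters, DESeq2 (675, with 546 shared and no adjusted p for 28 of the 576), the 4 cocktail libraries alone (638) and log2(FPKM + 0.1) (524) stayed within 1.5 times, as did counts divided by 4 (658), an alternative chosen after seeing the data. Same-numbered libraries did not deviate together across genes (correlations of 0.016, -0.031 and 0). The sources do not say whether they had a shared origin, and these correlations cannot settle it. With the replicate block 536 genes were called (401 and 135), 511 of them shared. The 114 calls within lists ranged from 78 to 133. Of 102 called genes named by the rule, 58 kept their call on leaving out each library and 52 in every alternative, and none changed sign. Signs changed only among named genes that were not called, most of them near 0 and Cd4 at -1.09 (SE 1.45). With upper quartile scaling, Atf5 was at -0.003, Fth1 at -0.009 and Junb at -0.016. On log2(FPKM + 1) and log2(FPKM + 0.1), Atf5 was at -0.026 and -0.027, Fth1 at -0.067 and -0.067, and Pde10a at -0.148 and -0.285. Leaving out 1 library, log2 fold changes ranged from -0.241 to 0.187 for Ahsg, -0.137 to 0.521 for Alb, -0.107 to 0.125 for Atf5, -1.745 to 0.129 for Cd4, -0.074 to 0.088 for Junb, -0.023 to 0.234 for Pde10a and -0.406 to 0.151 for Pde4d. These causes were not tested. With a minimum of 10 counts in every library the T and B cell list held no gene and gave no value.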

Other observations

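Of the 576 called genes, 462 were in none of the lists, 315 higher and 147 lower in 5C, and the genes below were picked from them after their values were seen. They had means of at least 5 CPM, and unless stated their calls held when any 1 library was left out. Angpt2, a ligand of the receptor Tie2, was at 2.34 and 4.78 CPM in 3C and at 18.5 and 21.8 CPM in 5C (log2 fold change 2.55, SE 0.31, edgeR adjusted p 0.00157). Notch4, a Notch receptor of endothelium, was at 3.58 and 4.72 CPM in 3C and 16.4 and 21.1 CPM in 5C (2.23, SE 0.22). C9 of the complement membrane attack complex went from 9.24 and 8.19 CPM to 54.9 and 47.6 CPM (2.60, SE 0.21), and Lrg1, a leucine-rich glycoprotein of plasma, from 112 and 148 CPM to 371 and 386 CPM (1.59, SE 0.14). Plod2, a lysyl hydroxylase, went from 94.7 and 93.5 CPM to 222 and 238 CPM (1.34, SE 0.09), and Fkbp10, a collagen chaperone, from 98.1 and 101 CPM to 204 and 204 CPM (1.08, SE 0.06). Wnt5a, a Wnt ligand, had a log2 fold change of 1.31 (SE 0.11), and Bmper, a regulator of bone morphogenetic proteins, one of 1.70 (SE 0.08). Pde2a, a phosphodiesterase of cyclic nucleotides, went from 4.51 and 4.05 CPM to 12.2 and 11.7 CPM (1.53, SE 0.16).

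Among the falls, Cldn2, a pore-forming claudin of tight junctions, went from 233 and 224 CPM in 3C to 74.7 and 76.9 CPM in 5C (-1.54, SE 0.11), and Cdh6, a cadherin, from 36.8 and 48.0 CPM to 13.9 and 16.2 CPM (-1.45, SE 0.14). Jag1, a Notch ligand, had a log2 fold change of -1.17 (SE 0.15), which lost its call in 1 of the 6 fits that left out a library. After Areg was seen to be lower, the 7 ligands of the epidermal growth factor receptor were looked up, of which 6 were tested and 3 called lower. Tgfa, transforming growth factor alpha, was at 175 and 171 CPM in 3C, 84.5 and 73.8 CPM in 5C and 82.3 and 88.6 CPM in DMSO (-1.08, SE 0.08, edgeR adjusted p 0.000194). Btc, betacellulin, went from 15.4 and 15.5 CPM to 7.08 and 7.39 CPM (-1.04, SE 0.17). Ereg, epiregulin, was at 9.84 and 11.2 CPM in 3C and 15.1 and 17.8 CPM in 5C (0.69, SE 0.13), Hbegf had a log2 fold change of 0.01 (SE 0.16) and Egf one of -0.11 (SE 0.30). The receptor Egfr had one of 0.28 (SE 0.08, edgeR adjusted p 0.0586).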
